A study of Saccharomyces cerevisiae with 4 samples.

Results

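The open reading frames (ORFs) described here are genes of chromosomes II, IX and X of the budding yeast *Saccharomyces cerevisiae* that the array annotation knows only by a systematic name. A gene was taken where that name began with YB, YI or YJ and no standard name stood beside it, with *YJR096W* left out by the rule. This gave 82 of the 5656 genes that had a probe set of their own, 32 on chromosome II, 20 on IX and 30 on X. Of these, 57 of the 4532 genes tested reached the filter on low signal, 23 on II, 12 on IX and 22 on X, and 25 stayed under it. The filter was a mean log2 signal of 6.11, a signal of 69.0. The chromosomes had been chosen because their genes as a whole gave about 2-fold higher signal in the mutant in these same arrays, so the ratios between the strains are given as a description and carry no test.

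The experiment compared the transcriptome of MEY12A, the *ccw12*Δ strain, with that of the wild type SEY6210. *CCW12* encodes a small mannoprotein of the cell wall, and the deletion was made by replacing it with *URA3* (*ccw12::URA3*). Both strains are *MAT*α and share mutant alleles of *ura3*, *leu2*, *his3*, *trp1*, *lys2* and *suc2*, and the intact *URA3* at the *CCW12* locus is found in the mutant alone. Cells of both strains were harvested in exponential growth in rich medium (YPD) with added adenine, with no other treatment, and the RNA behind each of the 2 arrays per strain came from 3 pooled preparations. MEY12A is a single strain, so that what its transformant carries beside the deletion cannot be told apart from the deletion.

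A systematic name is an address. The letter after Y stands for the chromosome, L or R for the arm, the number counts genes outwards from the centromere, and W or C gives the Watson or Crick strand. ORFs that keep only such a name are mostly those whose product has no assigned function, or one known only from sequence similarity, and they range from conserved enzymes and membrane proteins to short ORFs and the reading frames of Ty retrotransposons, which transpose through an RNA intermediate and lie in the genome in many near-identical copies. All 82 have an entry under the same systematic name in the RefSeq annotation of the R64 assembly, and 2 of them, *YIL171W* and *YIR043C*, are pseudogenes there.

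The 4 arrays matched their labels for the deleted gene. *CCW12* gave 4260 and 3919 in *ccw12*Δ cells, against 24314 and 24118 in the wild type. The source of the signal left in the mutant was not tested. *URA3*, under the filter, gave 59.5 and 54.2 in *ccw12*Δ cells, against 3.9 and 6.7. The α-factor gene *MF(ALPHA)1* gave 9040 and 9340 in *ccw12*Δ cells and 10432 and 11687 in the wild type. Of the other *MAT*α markers, *MF(ALPHA)2* gave 2791 and 3547 against 9247 and 8124, and *STE3* 1432 and 1331 against 1840 and 2985. *STE2*, the α-factor receptor gene of *MAT***a** cells, stayed under the filter, at 30.4 and 40.0 against 15.9 and 18.6. So did the *MAT***a** markers *MFA1* and *BAR1*, the second at 40.3 and 36.2 against 1.7 and 1.2. The *MAT***a** marker *MFA2* passed it, at 271 and 261 against 259 and 205. Median signals of all probe sets were 141 and 144 in the mutant and 122 and 118 in the wild type. The wild-type array of replicate 1 stood apart in RNA quality controls: its 3′ to 5′ signal ratio of *ACT1* was 2.99, against 1.38 in the other wild-type array and 1.49 in both mutant arrays. One label of wild-type replicate 2 names the strain SEY6211, which the authors list as *MAT***a**. On that array the *MAT*α markers *MF(ALPHA)1*, *MF(ALPHA)2* and *STE3* gave 11687, 8124 and 2985. The *MAT***a** markers *STE2*, *BAR1*, *MFA1* and *MFA2* gave 18.6, 1.2, 82.8 and 205 there. One label of both mutant samples names SEY6219. The other labels give SEY6210 and MEY12A.

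As a group the unnamed ORFs followed the shift of their chromosomes. The 57 that passed the filter had a median log2 ratio of *ccw12*Δ over wild type of 1.06, or 2.09-fold, with quartiles of 0.52 and 1.41 and extremes of -0.78 and 2.60. Their median signal was 360 and 378 in the mutant arrays and 194 and 199 in the wild-type arrays. Each mutant array can be set against each wild-type array, which gives 4 ratios per gene, and the median over the ORFs was 0.97, 0.97, 1.09 and 1.15 in these 4 pairs. Because a bulk culture was measured, more RNA per cell and more cells with the transcript cannot be told apart.

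The other 725 tested genes of the same chromosomes had a median of 0.96, whereas 221 unnamed ORFs of the other chromosomes had a median of 0.08 and 3528 named genes there one of 0.09. The median of all genes tested was 0.18. The median of the ORFs was thus close to that of their chromosomes and far from that of unnamed ORFs elsewhere. By chromosome the median was 1.09 for the 23 ORFs of II, 1.00 for the 12 of IX and 1.06 for the 22 of X, beside 0.94, 0.89 and 1.06 for all tested genes of II, IX and X.

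**Figure D1:**
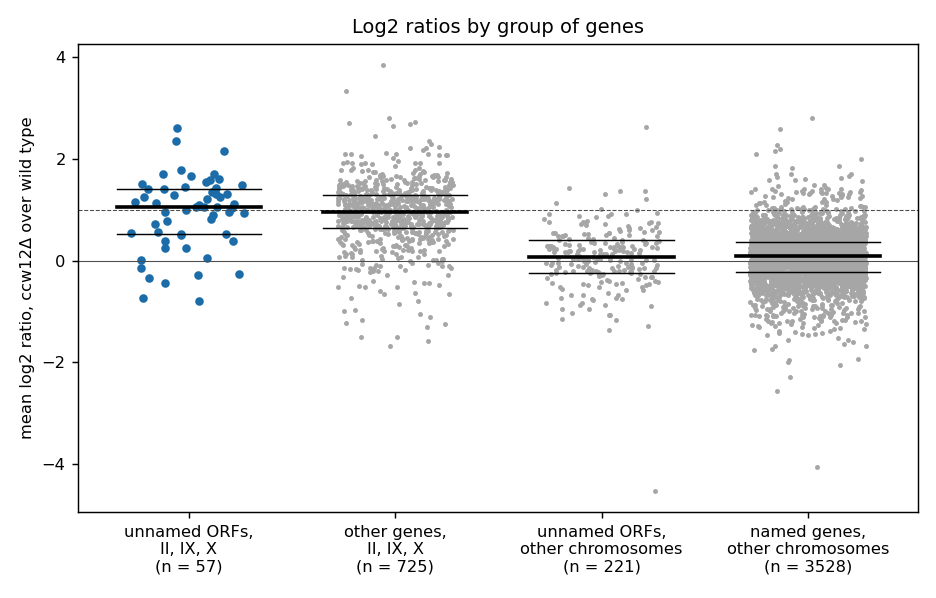
Mean log2 ratio of signals, *ccw12*Δ over wild type (vertical axis), for each tested gene in 4 groups of genes, with thick lines at the medians and thin lines at the quartiles. The unnamed ORFs of II, IX and X (median 1.06) and the other genes of these chromosomes (0.96) lie around the dashed line at 1, a 2-fold ratio, and both groups of the other chromosomes (0.08 and 0.09) lie near 0.

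**Figure D2:**
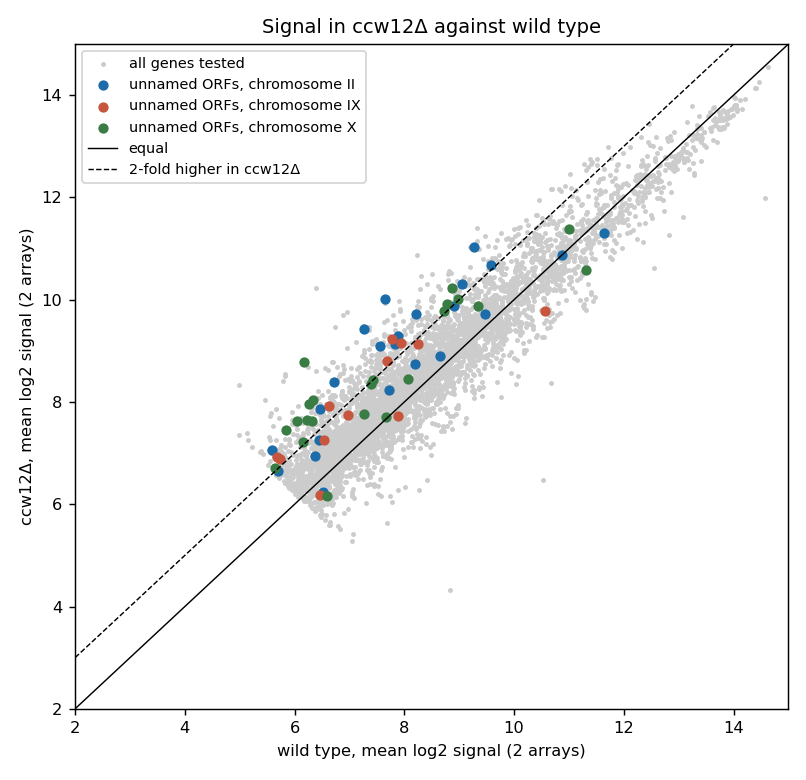
Mean log2 signal in *ccw12*Δ cells (vertical axis) against that in wild-type cells (horizontal axis), 2 arrays each, with the 57 unnamed ORFs in colour over all 4532 tested genes in grey. Most coloured points run along the dashed line of a 2-fold higher signal in *ccw12*Δ over most of the range of signals, and a few bright ones lie on or under the solid line of equal signal.

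For a closer view the ORFs were placed in 3 bands. A mean log2 ratio of 0.5 to 1.5, that is 1.41-fold to 2.83-fold, was called the 2-fold band. It held 33 ORFs (57.9%), with all 4 ratios above 1-fold in 32 of them. Above the band were 11 ORFs (19.3%) and under it 13 (22.8%). Over all 4532 genes, 24.9% lay in the band, 2.82% above it and 72.3% under it; among the other 725 genes of the 3 chromosomes 67.4% lay in the band, 13.2% above it and 19.3% under it. By a fold rule, a mean ratio of at least 2-fold in either direction with all 4 ratios on the same side, 31 of the 57 were higher and 0 lower in the mutant, where 10.4% of all genes were higher and 2.03% lower. The limma fit over all genes (Benjamini-Hochberg adjusted p under 0.05) called 17 of them higher and 0 lower, beside 5.30% and 0.596% of all genes (5.89% in either direction). That count of 17 was 8 and 7 when mutant replicate 1 or 2 was left out, 32 and 35 when wild-type replicate 1 or 2 was, and 1 to 3 under other scalings of the arrays. In 44 ORFs both mutant signals lay above both wild-type signals (37.8% of all genes), in 4 both lay below (15.5%), and in 9 the strains overlapped. Since the rule drew on this same contrast, these shares describe the choice of chromosomes.

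**Figure D3:**
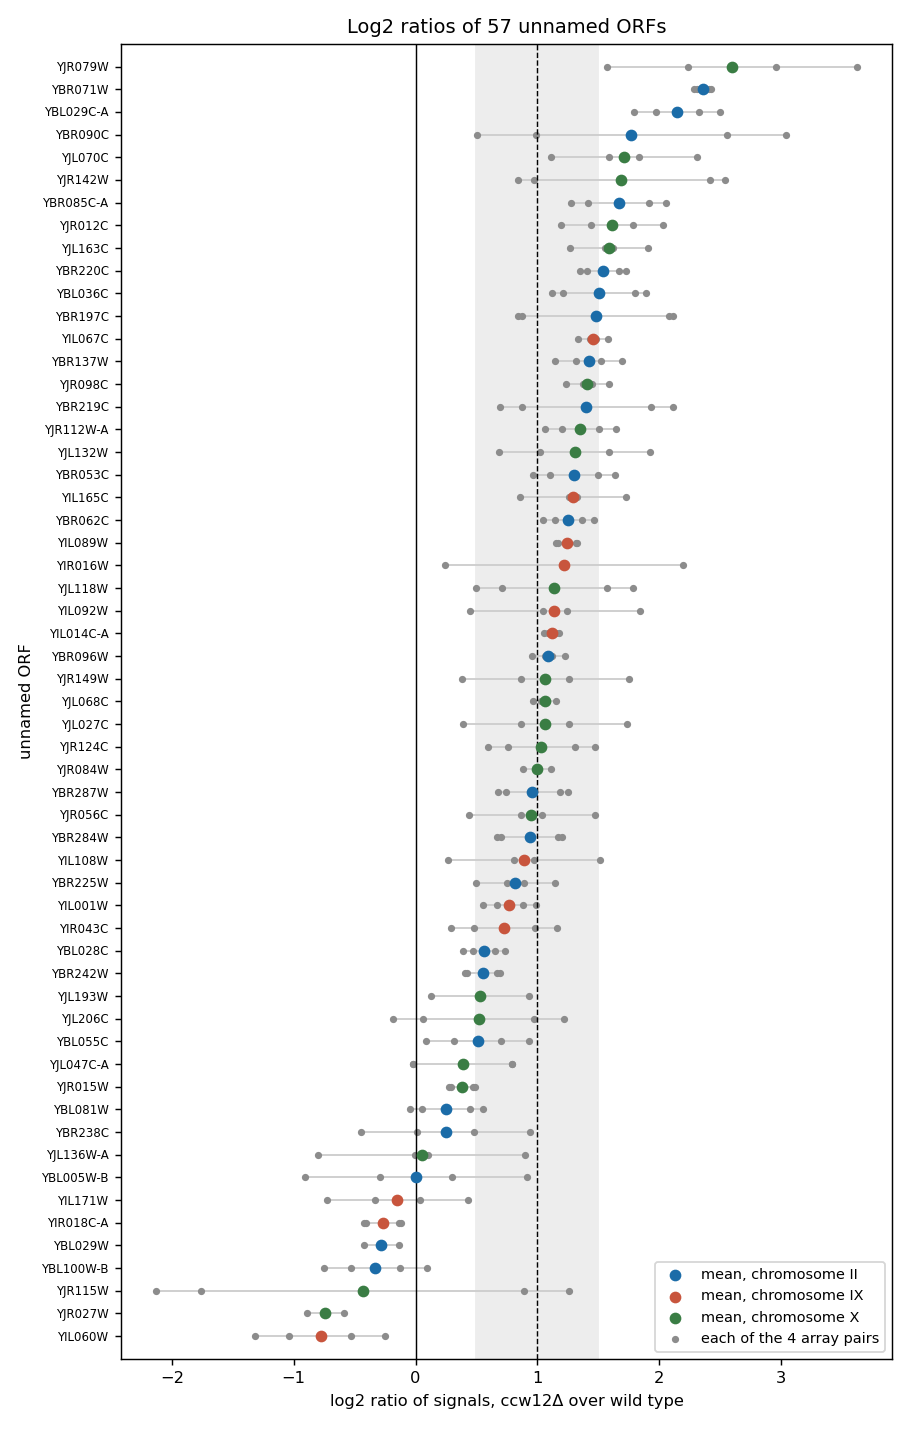
Log2 ratio of *ccw12*Δ over wild type (horizontal axis) for the 57 unnamed ORFs that passed the filter (rows, in order of their mean), with small grey points for the 4 array pairs and coloured points for their mean. The grey band from 0.5 to 1.5 holds 33 means, 11 lie to its right and 13 to its left, and in the lowest rows the means are below 0.

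The ORFs in the 2-fold band were spread over many kinds of protein. *YJL068C*, an esterase that hydrolyses S-formylglutathione in formaldehyde detoxification, gave 839 and 910 in *ccw12*Δ cells, against 430 and 410 in the wild type, with its 4 ratios between 1.95 and 2.22. *YJR084W* gave 360 and 332 in the mutant and 180 and 167 in the wild type, a mean of 2-fold. *YIL014C-A* gave 443 and 451 in the mutant and 213 and 199 in the wild type, with ratios of 2.08 to 2.27. In these 3 ORFs the arrays of each strain were closer to each other than to those of the other strain. Each chromosome had ORFs at almost the median of its tested genes. On II these were *YBR284W* (log2 ratio 0.94), whose product resembles AMP deaminase, and *YBR287W* (0.96), a membrane protein resembling auxin efflux carriers. On IX they were *YIL108W* (0.89), a metalloprotease-like protein, and *YIL001W* (0.77), with ankyrin repeats. On X they were *YJL027C* (1.06) and *YJR149W* (1.06), the second similar to nitronate monooxygenases.

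In the upper part of the band, replicates were again tight for several ORFs. *YIL067C* gave 571 and 634 in the mutant and 211 and 227 in the wild type, a log2 ratio of 1.46 with a standard error (SE) of 0.27. *YBR137W*, which has a role in the insertion of tail-anchored proteins, gave 552 and 717 against 221 and 250 (1.42). *YBR062C*, with a RING finger of the kind found in ubiquitin ligases, gave 1134 and 1419 against 550 and 515 (2.39-fold). In all 3 the lowest mutant signal was at least 2-fold the highest wild-type signal. At the lower edge of the band the picture was less clear. *YJL206C*, which resembles zinc-cluster transcription factors, gave 239 and 201 in the mutant and 229 and 102 in the wild type, and its strains overlapped; it was the only ORF of the band with a ratio under 1-fold in an array pair.

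Above the band, 3 ORFs had all 4 ratios over 1.5 on the log2 scale. *YBR071W*, a gene of unknown function on the right arm of II, gave 1038 and 1023 in *ccw12*Δ cells, against 193 and 210 in the wild type. Its mean was 5.13-fold (log2 2.36, SE 0.28), and the ratios lay within 4.88 to 5.38, so that it combined one of the highest ratios with one of the smallest spreads. Its neighbours *ALG14*, for a step of N-glycosylation, and *HSP26*, for a small heat shock protein, had log2 ratios of 0.80 and 1.24.

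*YBL029C-A*, which encodes a protein found at the cell periphery, gave 570 and 822 in the mutant and 164 and 145 in the wild type, 4.43-fold (2.15, SE 0.30). Its chromosomal neighbours did not follow it. *PET9*, the gene of the major mitochondrial ADP/ATP carrier, gave 7298 and 6464 against 6744 and 5524 (0.17), and *YBL029W*, on the other strand and adjoining its 5′ side, gave 79.6 and 71.4 against 96.0 and 87.6 (-0.28). The next ORF, *YBL028C*, for a nucleolar protein, gave 127 and 119 in the mutant and 75.9 and 91.0 in the wild type (0.56). Ratios as different as 2.15, -0.28 and 0.56 thus stood side by side on the left arm of II.

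The highest ratio of all belonged to *YJR079W*, at 348 and 552 in *ccw12*Δ cells and 117 and 44.7 in the wild type. The wild-type arrays differed strongly for this ORF, and its 4 ratios ranged from 2.98 to 12.4 around a mean of 6.06-fold (2.60, SE 0.46). In the R64 annotation it overlaps *BNA2* on its own strand and *AIM24* on the other. *BNA2*, for the enzyme that opens the tryptophan ring in NAD synthesis, gave 329 and 420 in the mutant and 53.7 and 60.1 in the wild type (2.71), and *AIM24* gave 710 and 1090 against 288 and 317 (1.54). All 3 were higher in both mutant arrays, and the part of *BNA2* transcripts in the signal of *YJR079W* was not tested. A dimmer probe set of *YJR079W*, under the filter, gave 35.1 and 38.6 against 18.0 and 16.1 (1.11).

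The remaining 8 ORFs above the band had mean log2 ratios of 1.51 to 1.77. *YBR085C-A* gave 319 and 352 in the mutant and 84.5 and 132 in the wild type (1.67, SE 0.31), between *AAC3* (-0.66) and *IST2* (0.36), both of which stayed under the band. *YBL036C*, a pyridoxal phosphate-binding protein of a family found from bacteria to humans, gave 819 and 873 in the mutant and 235 and 376 in the wild type (1.51), beside *APL3* (1.51) and *POL12* (1.06). *YBR220C*, similar to acetyl-CoA transporters, gave 558 and 537 in the mutant and 169 and 210 in the wild type (1.54), and *YBR219C*, which overlaps it on the same strand, 218 and 247 against 135 and 57.1 (1.40). These ORFs showed no overlap between the strains.

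*YJL070C*, an AMP deaminase-like ORF and the paralog of *YBR284W*, gave 310 and 224 in *ccw12*Δ cells and 103 and 62.7 in the wild type (1.71). *YJL163C*, a membrane protein of the major facilitator type, gave 220 and 180 against 74.7 and 58.4 (1.59). For *YJR012C*, at 216 and 144 in the mutant, both wild-type signals (52.8 and 62.9) were under the level of the filter, and it was at least 2.55-fold higher when that level stood for the wild type. In these 3 the mutant arrays differed from each other more than in *YBR071W*, but the lower mutant signal remained above the higher wild-type signal.

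For *YBR090C* and *YJR142W* the wild-type arrays were far apart. *YBR090C* gave 1773 and 2489 in the mutant and 302 and 1251 in the wild type. The low value was that of replicate 1, and the probe set carries a suffix that marks an incomplete set of probes. A dimmer plain probe set of the ORF, under the filter, gave 7.0 and 4.5 in the mutant and 9.0 and 6.9 in the wild type (-0.49). *NHP6B*, for an HMG-box chromatin protein, overlaps it on the same strand and gave 965 and 994 against 477 and 553 (0.93), close to the median of chromosome II. *YJR142W*, of the Nudix hydrolase family, gave 259 and 237 in the mutant and 132 and 44.4 in the wild type (1.69). There replicate 2 was the low one.

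**Figure D4:**
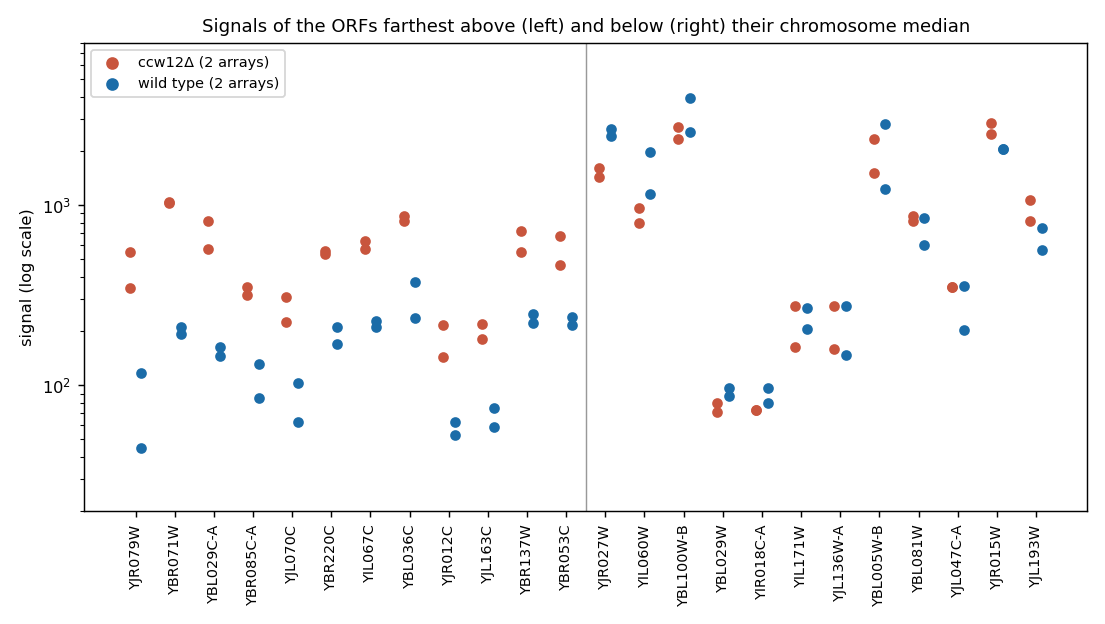
Signals on a logarithmic axis (vertical) of the 12 unnamed ORFs farthest above and the 12 farthest below the median log2 ratio of their chromosome, each with all 4 ratios on the same side of it, with 2 arrays of *ccw12*Δ cells (left of each pair) and 2 of the wild type (right). Mutant and wild-type points are well separated for the left-hand ORFs such as *YBR071W* (1038 and 1023 against 193 and 210), and on the right side they mix, lie the other way round as for *YJR027W*, or, for *YJR015W* and *YJL193W*, lie in the same order with a smaller gap.

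Of the 13 ORFs under the band, 7 had all 4 ratios under 0.5 on the log2 scale. The Ty reading frames stood out among them. All 4 ORFs whose probe set has the suffix for a sequence family, *YBL005W-B*, *YBL100W-B*, *YJR027W* and *YIL060W*, lay under the band, with a median of -0.54; the first 3 are Gag-Pol reading frames of Ty elements, and *YIL060W* is an ORF of unknown function. *YBL100W-B*, the brightest of all 57, gave 2721 and 2333 in *ccw12*Δ cells, against 2551 and 3937 in the wild type (-0.33). *YJR027W* gave 1610 and 1438 in the mutant and 2663 and 2426 in the wild type (-0.74, SE 0.26), with no overlap. *YBL005W-B* gave 2319 and 1511 in the mutant and 1227 and 2838 in the wild type (0.00), so that its wild-type arrays spanned both mutant arrays. *YIL060W* gave 795 and 964 in the mutant and 1980 and 1149 in the wild type, the lowest ratio of the 57 (-0.78).

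A family probe set can read transcripts from copies on several chromosomes at once, and the part of this in the ratios here was not tested. Genes of II, IX and X outside the unnamed ORFs with this suffix, mostly tRNA genes, behaved alike: all 15 were under the band, with a median of -0.52. On the other chromosomes 101 of 106 such genes were under the band, with a median of -0.47, where genes with a plain suffix had a median of 0.11. In 14 of the 15 the highest of the 4 signals was that of wild-type replicate 1, the array with the high 3′ to 5′ ratios; their median was -1.30 and -0.81 for the mutant arrays against replicate 1 and -0.36 and 0.11 against replicate 2. Among the 4 unnamed ORFs, *YIL060W* was lower against replicate 1 (-1.32 and -1.04) than against replicate 2 (-0.53 and -0.25), and *YJR027W* was under 0 against both (-0.73 and -0.89 for replicate 1, -0.59 and -0.75 for replicate 2). *YBL005W-B* (0.92 and 0.30 against replicate 1, -0.29 and -0.91 against replicate 2) and *YBL100W-B* (0.09 and -0.13, then -0.53 and -0.76) were lower against replicate 2. Dimmer family probe sets gave -0.34 and -0.40 for *YJR027W* and -0.58 and -0.41 for *YIL060W*. With plain probe sets alone, 49 ORFs remained, with a median of 1.12, 10 above the band and 7 under it, beside a median of 0.98 for 687 other genes of the 3 chromosomes. A further 8 Ty reading frames and the 5 subtelomeric Y′ helicase ORFs of these chromosomes were measured only by probe sets that name several genes, and were not used.

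*YJR015W*, for a protein of unknown function, was the second brightest ORF and the brightest with a plain probe set. It gave 2496 and 2867 in *ccw12*Δ cells, against 2042 and 2066 in the wild type, and its 4 ratios lay between 1.21 and 1.40, higher in both mutant arrays but under the band. Its neighbour *TMA22* had a log2 ratio of 0.80, and *ILV3*, for a step of branched-chain amino acid synthesis, one of 0.19. *YBL081W* gave 876 and 818 in the mutant and 845 and 599 in the wild type (0.25), and *YBR238C*, a mitochondrial protein related to *RMD9*, gave 558 and 405 against 290 and 552 (0.25). In both *YBL081W* and *YBR238C* the strains overlapped and the wild-type arrays lay further apart than the strains.

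Among the dim ORFs under the band, *YBL029W* (above) and *YIR018C-A* were lower in both mutant arrays. *YIR018C-A* gave 73.2 and 72.5 in *ccw12*Δ cells and 79.6 and 97.1 in the wild type (-0.27), close to the level of the filter. It lies between *YAP5* (1.18), an iron-response transcription factor, and *FLO11*, for the adhesin of invasive growth, which gave 258 and 289 in the mutant and 969 and 782 in the wild type (-1.67). *YIL171W*, annotated as a pseudogene of the hexose transporter family, gave 276 and 163 against 205 and 270 (-0.15), with overlap, on a probe set with an incomplete or relaxed design. The same class of probe set measured *YJL136W-A* (0.05), whose dimmer probe set gave 0.17. *YJL047C-A* gave 351 and 351 in the mutant and 356 and 203 in the wild type (0.39). In all, 6 of the 13 ORFs under the band had a suffix other than the plain one, against 2 of the other 44.

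*YJR115W* had the most discordant mutant arrays of the 57 ORFs. It gave 203 and 25 in *ccw12*Δ cells and 109 and 84.6 in the wild type (-0.43, SE 0.79), so the wild-type signals lay between those of the mutant, and no direction can be read. Its paralog on chromosome II, *ECM13*, gave 914 and 1573 in the mutant and 85.7 and 81.8 in the wild type, a log2 ratio of 3.84, the highest of all tested genes.

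Paralogs with one copy on another chromosome could be set beside each other on the same arrays. *YIR016W* on IX gave 406 and 797 in *ccw12*Δ cells and 344 and 174 in the wild type (1.22), and its paralog *YOL036W* on XV gave 461 and 465 against 278 and 385 (0.50). *YBR197C* on II gave 132 and 135 in the mutant and 31.2 and 73.6 in the wild type (1.48), whereas *YPL077C* on XVI, under the filter, gave 43.4 and 51.5 against 42.5 and 42.0 (0.16). For *YBR238C* on II (0.25) and *RMD9* on VII (-0.11) both values were under the band. In each pair the copy on II or IX had the higher ratio, which the choice of these chromosomes from this same contrast already favours.

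Grouped by known or predicted role, the listed transporters and enzymes that passed the filter lay in or above the band, as did 77.2% of all 57 ORFs and 80.7% of the other genes of these chromosomes. The transporter list does not hold the pseudogene *YIL171W* (-0.15). The enzyme list leaves out the AMP deaminase-like *YJL070C* (1.71) and *YJR142W* (1.69), of the Nudix hydrolase family, both above the band. Of 16 predicted enzymes on the list of such genes for these chromosomes 8 were unnamed on the array, and the 7 past the filter all lay in the 2-fold band, with a median of 1.06. Beside those above they were *YBR053C*, similar to regucalcin (464 and 674 in the mutant, 216 and 238 in the wild type, 1.30), *YIL165C*, a nitrilase fragment (1.29), *YBR242W*, an HD-domain phosphohydrolase (0.55), and *YBL055C*, a nuclease of the TatD family (0.51). Of 11 transporters and transporter-like proteins 6 were unnamed and all 6 passed, 4 in the band and 2 above it, with a median of 1.22. The brightest of them were *YJL193W*, of the triose phosphate translocator type (1075 and 818 in the mutant, 750 and 563 in the wild type, 0.53), and *YJR124C*, of the major facilitator type (1088 and 969 against 391 and 642, 1.03). A cell surface list of 5 held 1 of the ORFs, *YBL029C-A*, one of 12 mitochondrial proteins held 1, *YBR238C*, and one of 7 methyltransferases of ribosomes and translation factors held 0. The 3 Ty reading frames had a median of -0.33.

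Along chromosomes II and X, ORFs of all 3 bands were interspersed, and chromosome IX had 9 in the band, 3 under it and 0 above it. Of the 57, 51 had a tested neighbour in the R64 gene order. Over the 89 pairs of an ORF and such a neighbour, the neighbours had a median log2 ratio of 0.87. It was 0.93 beside ORFs above the band, 0.89 beside those in it and 0.74 beside those under it. Across the 51 ORFs, the ratio of an ORF and the mean of its neighbours had a Pearson's r of 0.21. These ORFs share arrays, and their neighbours are partly the same genes, partly other ORFs of the group and partly genes that overlap them. By arm the ORFs' median ranged from 0.38 on the left arm of II (8 ORFs, including 2 Ty reading frames) to 1.30 on its right arm (15 ORFs); the other genes of these arms had medians of 1.08 and 0.92. On the left arm of IX the 9 ORFs had 1.12, on its right arm the 3 ORFs had 0.73, and on X the medians were 1.06 (left, 10 ORFs) and 1.05 (right, 12 ORFs).

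**Figure D5:**
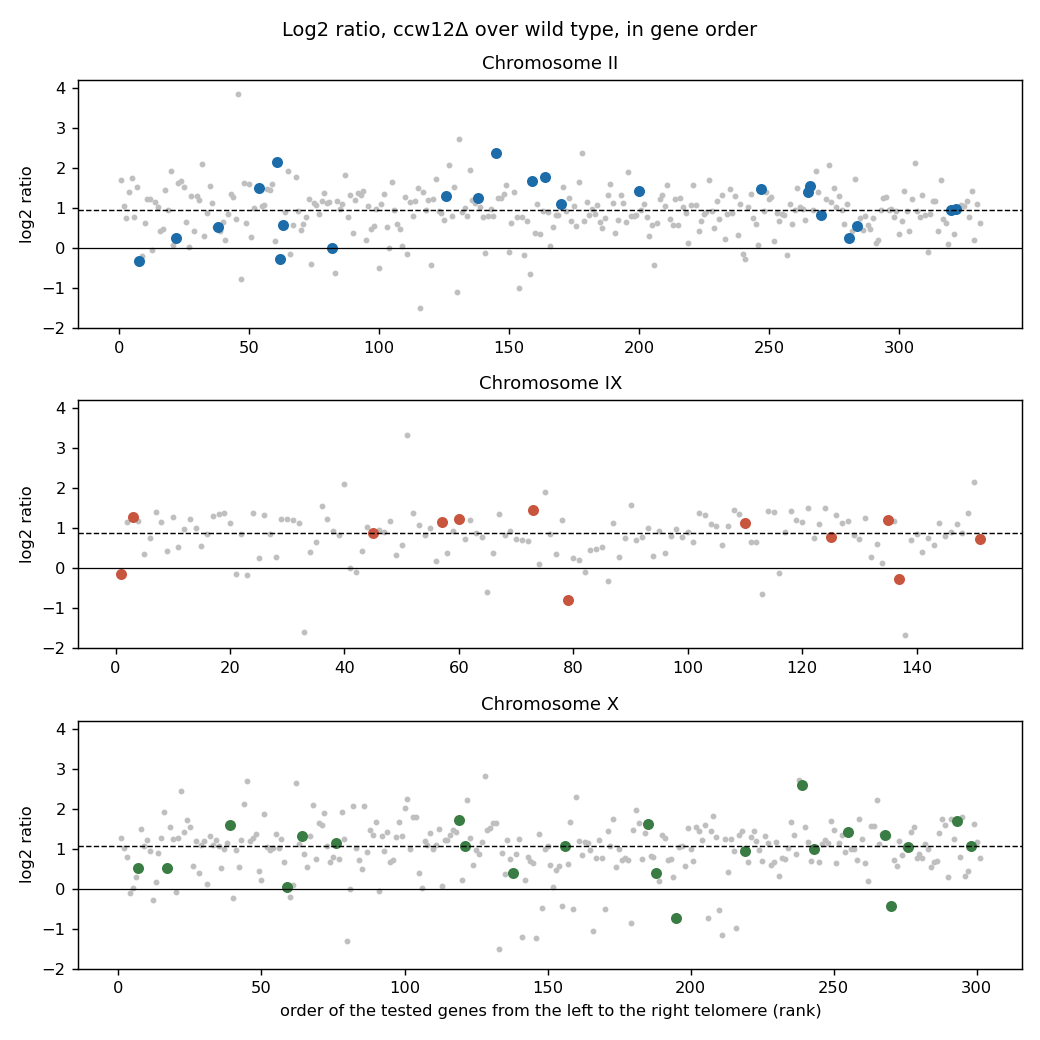
Mean log2 ratio of *ccw12*Δ over wild type (vertical axes) of the tested genes in their order along chromosomes II, IX and X (horizontal axes, rank), with the unnamed ORFs in colour, the other genes in grey and a dashed line at the median of each chromosome (0.94, 0.89 and 1.06). Grey and coloured points surround the dashed lines from end to end of each chromosome, and coloured points under 0 are single ORFs among higher ones.

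With plain probe sets, 25 ORFs on the Crick strand had a median of 1.29 and 24 on the Watson strand one of 1.03, beside 1.00 and 0.98 for other genes of these chromosomes. The level of the signal made no such difference: the 29 brighter ORFs and the 28 dimmer ones both had a median of 1.06.

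The spread between arrays of a strain limits how far single ORFs can be read. The log2 difference between both wild-type arrays had a median of -0.02 and an SD of 0.71 over the ORFs, against -0.09 and 0.63 over all tested genes. Between both mutant arrays the SD was 0.56, or 0.39 without *YJR115W*, against 0.40 over all tested genes. In 11 ORFs the difference between the wild-type arrays was larger than that between the strains, and in 6 the difference between the mutant arrays was. The wild-type array of replicate 1 was the higher of the pair in 28 of the 57, and the part of its RNA quality in these values was not tested. Without that array the median log2 ratio of the ORFs was 1.05, with 34 in the band, 10 above it and 13 under it; of the 11 ORFs above the band and the 13 under it, 6 and 11 kept their band.

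The 25 ORFs under the filter were seen only dimly, with signals of 0.9 to 128 in the mutant and 1.0 to 90.9 in the wild type. Those nearest to it were *YIR042C*, at 118 and 128 in *ccw12*Δ cells and 28.1 and 32.5 in the wild type, and *YBR259W*, at 98.7 and 104 against 30.4 and 38.3. Just inside were *YBR284W*, at 101 and 98.5 in the mutant and 62.0 and 43.8 in the wild type, and *YJR149W*, at 124 and 88.3 against 36.8 and 67.9. Both mutant signals lay above both wild-type signals in 14 of the 25, and in 29.7% of all 1124 genes under the filter. Of the ORFs past the filter, 5, *YJR012C*, *YIL089W*, *YIL092W*, *YJR149W* and *YBR284W*, had both wild-type signals under 69.0. *YBR197C* and *YJL163C* had a mean wild-type signal under that level, 52.4 and 66.6. All of these passed through the mutant arrays alone, so their place among the 57 is not independent of their ratio.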

How the data were processed

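Biotin-labelled cRNA of *ccw12*Δ (MEY12A) and wild-type (SEY6210) cells was hybridised to Affymetrix Yeast Genome S98 arrays, 4 in all and 2 for each strain. The intensity values were deposited by the authors as 1 linear signal per probe set and array, scanned and scaled by them with GCOS; their processing notes name MAS5, with no version, and the scaling target and genome build are not given in the sources used here. Signals are no counts, and the number of arrays limits the precision. Replicates are pools of separate RNA preparations.

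Of 9335 probe sets, 6504 name 1 gene; 328 with several genes, 2443 with none and 60 controls were not used. Names, gene order and overlaps came from the RefSeq table of R64, matched by Entrez gene number or, where that failed, by locus tag. Neighbours and overlaps rest on the start and end coordinates given there, which are not printed. Promoter windows were not analysed here. Before log2, 19 signals of zero were raised to 0.1. The brightest probe set stood for a gene, and the filter was the 25th percentile of the mean log2 signals of single-gene probe sets.

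A log2 ratio is the mean of the 4 log2 ratios. limma 3.58.1 in R 4.3.3 (lmFit, eBayes with trend) was fitted over all 4532 genes with Benjamini-Hochberg adjustment and tested on simulated data; its calls and SEs describe the ORFs and no p is given for them. The fold rule follows the authors' comparison of each mutant with each wild-type array, without their detection and change calls. Genes named were the 12 ORFs farthest above and the 12 farthest below their chromosome's median, 2 nearest to it per chromosome, the 3 brightest, the 2 on each side of the filter, the members of 7 gene lists and the checks; other ORFs, neighbours and paralogs were named after their values were seen. The ORFs and lists were chosen with earlier results of these data known. Alternatives were other scalings, filters, an offset of 7.2, means over probe sets, a fit without trend, other band edges, a replicate block and leaving out each array. Figures were made in Python 3.11.15 with matplotlib 3.10.9.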

Additional observations from a re-analysis of the deposited data

How the results depend on the processing

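With 2 arrays per strain, the number of ORFs called by limma rests on the scaling and on single arrays, whereas their median ratio stayed at 0.79 or above unless each chromosome was centred on its own median. Among all values under alternatives, 57 stayed close to the reported one and 40 moved. Most of these values are counts, which have no direction and were compared without regard to the number of ORFs kept. Direction was checked for the median ratio alone, and it changed in 0 settings. Signals near background, under the filter level of 69.0, limit what can be said of the dim ORFs, and bands of single ORFs with discordant arrays are uncertain.

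Limma called 267 genes in all and 17 of the ORFs. Under quantile normalization it called 117 genes and 3 ORFs, with arrays centred on their medians 43 and 2, centred on the other chromosomes 70 and 2, centred by chromosome 27 and 1, and with no filter 39 and 2; the cause was not tested. A filter at the 50th percentile, which kept 33 ORFs, called 10. Leaving out 1 array gave 76 to 1433 genes and 7 to 35 ORFs: 8 ORFs without mutant replicate 1, 7 without mutant replicate 2, 32 without wild-type replicate 1 and 35 without wild-type replicate 2. The lone array was then assumed to vary like the other strain's pair. With the replicate number as a block, 625 genes and 31 ORFs were called, and with crossed numbers, a choice made after seeing the data, 625 and 33. Samples of the same number did not deviate together (correlation -0.14), so the numbers establish no pairing.

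The median of all genes, 0.18 as deposited, became 0.04 with quantile normalization, -0.09 with centring on array medians and 0.09 with centring on the other chromosomes. The ORFs' median of 1.06 became 0.91, 0.79 and 0.97 under these scalings, 0.01 when centred by chromosome, and 1.00 to 1.12 with 1 array left out. The fold rule gave 10 ORFs when centred by chromosome, 16 with the filter at the 50th percentile and 29 to 32 with 1 array left out. The band of 33 ORFs held 12, 18 and 17 under centring by chromosome, the filter at the 50th percentile and narrower band edges, and 27 to 35 with 1 array left out. The 13 under the band became 44 when centred by chromosome, 22 with no filter and 12 to 16 with 1 array left out. The 11 above it became 4 under quantile normalization, 4 under centring on array medians, 1 when centred by chromosome, 17 with no filter, 5 with the filter at the 50th percentile, 21 with narrower band edges, and 10 to 14 with 1 array left out. All 13 ORFs under the band stayed there in every scaling. Every scaling lowered the ORFs' median, so those under the band could hardly leave it, and this is no measure of their stability. Of the 11 above the band, 4 stayed under quantile normalization, 4 under centring on array medians and 8 when centred on the other chromosomes. With 1 array left out, 6 to 10 of these 11 stayed above the band and 10 to 13 of the 13 stayed under it.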
